A study of Homo sapiens with 60 samples.

Results

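The 33 genes described here encode chaperones, folding enzymes, stress sensors and degradation factors of the endoplasmic reticulum (ER). They were taken from a list of symbols chosen by known role, with earlier results of these data known. All 33 were found among the 60675 genes of the deposited table. The libraries come from HepG2, a line grown from a human hepatocellular carcinoma. Cells were kept for 24 h with a water extract of medicinal plants or with vehicle. Of the 33 genes 32 passed the filter on low counts, while DERL3, a derlin of the ER membrane, reached 0 to 0.289 CPM (counts scaled to library size) and was not tested.

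The ER folds membrane and secreted proteins, a large load in liver cells, which release most plasma proteins. When unfolded proteins build up, the sensors IRE1 (gene ERN1), PERK (gene EIF2AK3) and ATF6 start the unfolded protein response, which raises chaperones and degradation factors and slows translation. Proteins that fail to fold are passed back to the cytosol and destroyed, a route called ER-associated degradation (ERAD).

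There were 19 groups of 3 libraries. The vehicle group received dimethyl sulfoxide, given as 0.1% in the sample labels and as 2% in the series text, and the difference could not be settled here. The other 18 groups received Menthae Herba or Saposhnikoviae Radix, both single herbs, or the formulas Saengmaek-san, Guibi-tang, Soyo-san or Okbyeongpung-san, each at 20, 100 and 500 µg/mL. The formula Soshiho-tang had 1 library at each of the same doses and is given as values with no test. The labels do not say that replicates were separate cultures, so the p-values reflect the spread among these libraries alone, which may be technical. In the sample labels only vehicle has a dimethyl sulfoxide content, and it has a code number of its own. A difference between vehicle and extract libraries therefore cannot be told apart from one between code numbers or in dimethyl sulfoxide. The change from 20 to 500 µg/mL lies within 1 extract and its code number and was taken as the main comparison.

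Library totals lay between 20446542 and 32386486 expected counts (median 25862356). Hepatocyte markers were high in all libraries (ALB 6749 to 8397 CPM, AFP 2589 to 3346 CPM). Of the leukocyte markers LYZ (922.9 to 2628 CPM) and CD68 (30.5 to 51.1 CPM) were present, and PTPRC, CD3E and MS4A1 stayed at or under 0.0432 CPM. Endothelial PECAM1 reached 2.79 to 5.11 CPM, VWF up to 1.39 and CDH5 up to 0.743, with KDR at 0. Fibroblast COL1A1 lay at 0.459 to 1.51 CPM, and COL3A1, COL1A2, DCN and LUM reached 0.208 CPM at most. The libraries fell into 31 with lower MALAT1 (174.6 to 282.6 CPM) and 29 with higher MALAT1 (387 to 552.5 CPM), called library classes here. Vehicle, Menthae Herba and Saposhnikoviae Radix were all of the lower class, Soyo-san, Okbyeongpung-san and Soshiho-tang all of the higher class, and Saengmaek-san and Guibi-tang held both within each dose. Vehicle replicate 1 stood apart from the other 2 vehicle libraries, with a chi-square per degree of freedom of 17.3 and 14.2 against 3.21 between those. Menthae Herba 20 replicate 3 (16.7 and 13.0 against 3.82) and Okbyeongpung-san 20 replicate 3 (15.4 and 16.7 against 4.81) stood apart in the same way. Guibi-tang 20 replicate 1 did too (18.7 and 15.8 against 4.57), but it was of the lower class and the other 2 of the higher. Results without the libraries named so far are given beside some of the counts they touch. For the other counts the range over all fits without 1 library is given at the end of the report. Weaker splits were seen for Saengmaek-san 500 replicate 1 (12 and 17.8 against 7.32) and Saposhnikoviae Radix 500 replicate 1 (13.3 and 11.8 against 5.97). The same held for Menthae Herba 500 replicate 2 (16.1 and 9.34 against 5.71) and Okbyeongpung-san 100 replicate 3 (13.1 and 7.21 against 4.47). Saengmaek-san 100 replicate 3, of the higher class, also stood apart (12.2 and 15.2 against 6.28). In Guibi-tang 100, which held both classes, all pairs were far apart (19.5, 14.4 and 17.7).

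Cells answer ER stress through short promoter sequences, the ER stress elements bound by ATF6 and XBP1, shown here as a description. The list holds genes chosen for a role in ER folding and ER stress, so matches in its members are not independent of that choice. Of the 33 genes 29 had a RefSeq promoter (GRCh38.p14, 250 bases before to 50 bases after the start), and both strands were searched. The letters searched were ERSE (CCAAT, any 9 bases, then CCACG), ERSE-II (ATTGG, any 1 base, then CCACG) and the unfolded protein response element UPRE (TGACGTGG), which can overlap ERSE-II by its last 5 bases. ERSE was present in 0.0769% of all 35116 windows and in 7 of the 29 genes, CALR, CANX, CRELD2, HSP90B1, HSPA5, PDIA6 and XBP1. ERSE-II was present in 0.0541% of windows and in 3 of the genes, HERPUD1, HYOU1 and SDF2L1. UPRE was present in 0.729% of windows, and among these genes in HYOU1 and TXNDC5. A gene can have several windows, as CANX does, so shares of windows and counts of genes are unlike units. The 9 stretches below hold a full ERSE or ERSE-II upstream of the start, 5′ to 3′ on the gene's strand, with the fixed letters of the element in capitals on either strand. The CANX stretch is not printed.
HSPA5, chr9:125241371-125241429 (minus strand): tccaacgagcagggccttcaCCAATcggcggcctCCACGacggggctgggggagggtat
HSP90B1, chr12:103930196-103930359 (plus strand): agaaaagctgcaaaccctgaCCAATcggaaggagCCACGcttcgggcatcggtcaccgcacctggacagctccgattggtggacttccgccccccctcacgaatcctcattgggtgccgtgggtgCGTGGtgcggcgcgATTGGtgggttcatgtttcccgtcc
HYOU1, chr11:119057254-119057410 (minus strand): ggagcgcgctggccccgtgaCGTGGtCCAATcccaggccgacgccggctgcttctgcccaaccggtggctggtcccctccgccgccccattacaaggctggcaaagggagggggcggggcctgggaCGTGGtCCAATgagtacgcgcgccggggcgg
PDIA6, chr2:10812833-10812891 (minus strand): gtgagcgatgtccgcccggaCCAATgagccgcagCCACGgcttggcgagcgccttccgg
CALR, chr19:12938364-12938422 (plus strand): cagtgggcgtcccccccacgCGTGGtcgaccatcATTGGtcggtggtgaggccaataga
HERPUD1, chr16:56932005-56932055 (plus strand): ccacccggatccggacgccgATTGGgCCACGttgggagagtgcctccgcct
SDF2L1, chr22:21642094-21642144 (plus strand): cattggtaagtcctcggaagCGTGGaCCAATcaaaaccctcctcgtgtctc
XBP1, chr22:28800583-28800641 (minus strand): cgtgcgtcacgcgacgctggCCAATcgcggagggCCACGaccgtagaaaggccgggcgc
CRELD2, chr22:49918534-49918592 (plus strand): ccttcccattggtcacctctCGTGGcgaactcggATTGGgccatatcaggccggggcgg
HSP90B1 and HYOU1 each carried a pair of matches, and the first match of HYOU1 was joined to a UPRE. A match is a description of these letters and not a measured site of binding.

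In vehicle the levels of the genes per kilobase of merged exon spanned a wide range. CALR, the lectin chaperone calreticulin, stood highest at 578.8 CPM per kb. HSPA5, the chaperone BiP that binds unfolded chains and holds the sensors inactive, was at 316.4 and P4HB, a protein disulfide isomerase, at 312.4 CPM per kb. The sensor ERN1 was the lowest of the 32 tested genes at 1.28 CPM per kb, next to ERP27, a redox-inactive member of the disulfide isomerase family, at 2.11.

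From 20 to 500 µg/mL of Menthae Herba, 3 of 4 sensor and transcription factor genes and 3 of 6 ERAD genes were called higher, and 2 of 6 chaperones and lectins lower. In the quasi-likelihood test of edgeR, adjusted over 16644 genes after Benjamini and Hochberg, 10 of 32 members were higher and 5 lower at an adjusted p under 0.05. Over all genes 16.3% were called higher and 15.8% lower, 32.1% in all, so the members' share of lower genes was near that of all genes. Without Menthae Herba 20 replicate 3 the members numbered 7 higher and 4 lower. The median log2 fold change of the members was 0.094 against -0.005 over all genes. All fold changes below are log2 ± standard error with adjusted p from this test, and the map of dose changes shows all 32 genes by extract.

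**Figure D1:**
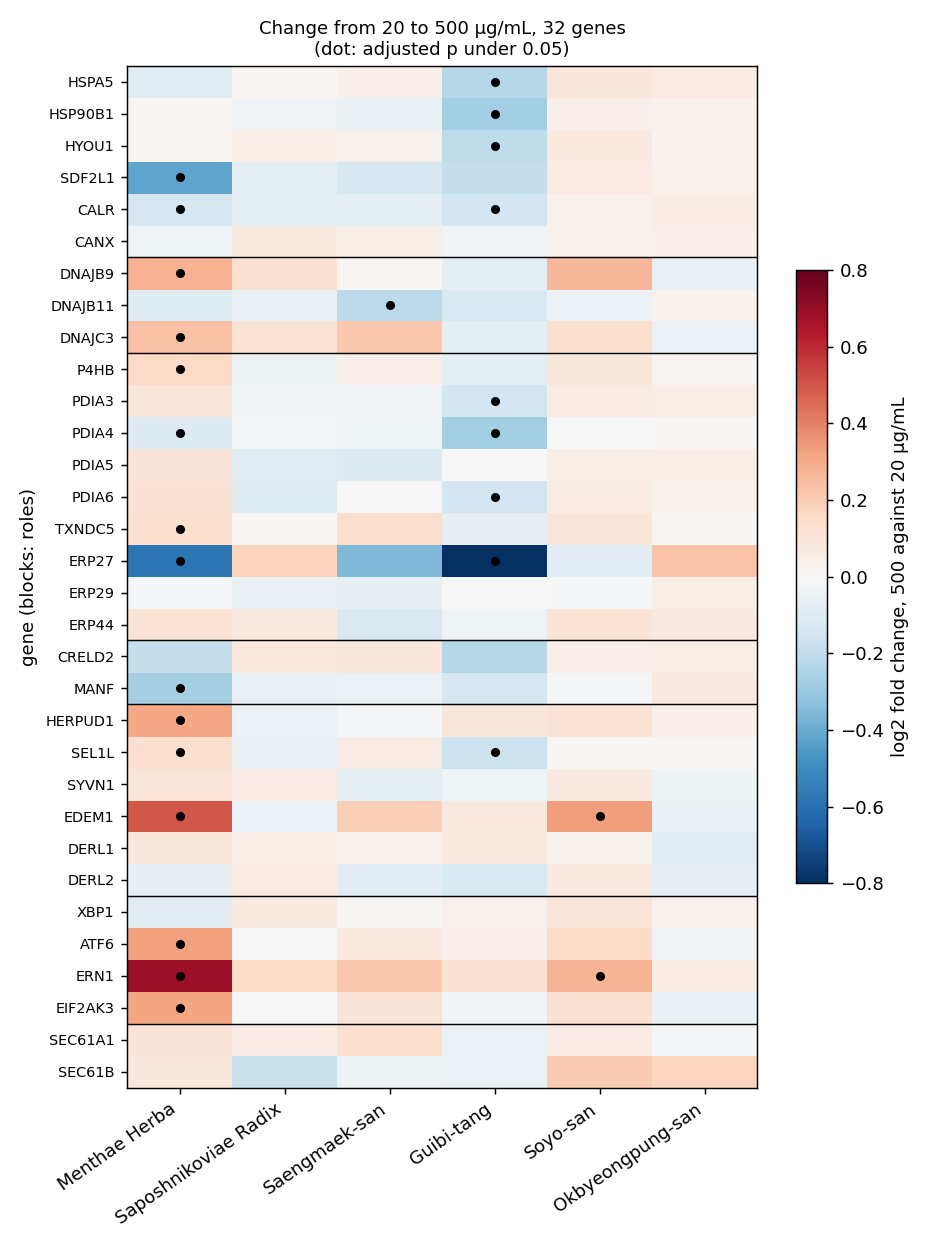
Log2 fold change of 500 against 20 µg/mL for the 32 tested genes (rows) in 6 extracts (columns), 3 libraries per dose. Lines separate, from the top, chaperones and lectins, J proteins, disulfide isomerases, small secreted proteins, ERAD, sensors with XBP1, and the translocon pore. Dots mark an adjusted p under 0.05: 15 in Menthae Herba, 1 in Saengmaek-san, 9 in Guibi-tang, 2 in Soyo-san and none in the other 2.

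Of the 4 sensor and transcription factor genes 3 rose. ERN1 (chr17:64039142-64130819, minus strand, GENCODE v29 on GRCh38), the kinase and RNase IRE1, stood at 17.0, 15.5 and 16.3 CPM at 20 µg/mL, 17.9, 18.6 and 18.7 at 100, and 27.3, 24.6 and 26.3 at 500, against 13.3, 14.1 and 14.3 in vehicle. Values at 500 lay above all other libraries of the series, and 100 µg/mL lay above 20. The change from 20 to 500 was 0.68 ± 0.06 (adjusted p = 5.78e-13). EIF2AK3 (chr2:88556741-88627576, minus strand), the kinase PERK that slows translation, was at 30.6, 30.1 and 29.4 CPM at 20 µg/mL, 33.6, 32.7 and 34.5 at 100, and 36.6, 37.7 and 37.6 at 500. The doses did not overlap, and 500 µg/mL returned to the level of vehicle (37.0, 37.2 and 36.8 CPM), a change from 20 of 0.31 ± 0.05 (adjusted p = 2.68e-06). ATF6 (chr1:161766294-161964070, plus strand), the sensor cut to a transcription factor in the Golgi, went from 43.0, 44.3 and 42.9 CPM at 20 to 52.3, 55.6 and 55.1 at 500 (0.33 ± 0.05, adjusted p = 4.62e-07), with 43.9, 42.0 and 43.9 at 100. XBP1, the transcription factor whose mRNA is spliced by IRE1, read 330.5, 361.2 and 353.7 CPM at 20 and 317.8, 336.9 and 325.7 at 500 (-0.09 ± 0.05, adjusted p = 0.155). Counts per gene do not separate spliced from unspliced XBP1, so they do not read IRE1 activity.

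Of the 6 tested ERAD genes 3 rose and none fell. EDEM1 (chr3:5187646-5219957, plus strand), a mannosidase-like protein that marks misfolded glycoproteins, went from 56.4, 54.3 and 44.6 CPM at 20 µg/mL through 58.1, 58.9 and 57.2 at 100 to 74.5, 72.3 and 72.2 at 500 (0.50 ± 0.06, adjusted p = 8.93e-10). Its values at 500 were the highest of the series. HERPUD1, an organizer of the degradation complex whose ERSE-II is printed above, was at 80.1, 78.8 and 77.0 CPM at 20, 82.8, 79.4 and 75.5 at 100 and 95.0, 102.1 and 94.8 at 500 (0.31 ± 0.05, adjusted p = 2.12e-06). Its doses of 20 and 100 overlapped and 500 lay above both. SEL1L, the adaptor of the ubiquitin ligase SYVN1, changed by 0.13 ± 0.05 (adjusted p = 0.0464). SYVN1, DERL1 and DERL2 read 0.10 ± 0.06, 0.09 ± 0.05 and -0.07 ± 0.07 and did not pass. Without Menthae Herba 20 replicate 3 or replicate 1, or without 500 replicate 1 or 3, SEL1L lost its call (adjusted p up to 0.274).

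Of the 3 J proteins, partners that drive the ATPase of BiP, 2 rose. DNAJB9 (chr7:108569568-108574850, plus strand), which also represses IRE1, was at 13.1, 14.4 and 11.7 CPM at 20 µg/mL, 12.6, 12.8 and 12.8 at 100, and 15.8, 15.9 and 15.6 at 500. The 500 µg/mL values lay above the other doses and just above vehicle (14.7, 15.4 and 15.4 CPM), a change from 20 of 0.28 ± 0.09 (adjusted p = 0.0148). DNAJC3 (chr13:95677139-95794989, plus strand), a cochaperone known to inhibit PERK, went from 79.6, 80.7 and 68.6 CPM to 90.1, 86.2 and 92.3 CPM (0.23 ± 0.07, adjusted p = 0.00732), with 80.5, 83.3 and 89.4 at 100. Both calls were lost without Menthae Herba 20 replicate 3, the lowest library of that group in each gene (0.20 with adjusted p = 0.127 for DNAJB9, 0.17 with adjusted p = 0.0966 for DNAJC3). DNAJB11 read -0.10 ± 0.05 and did not pass.

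Of 6 chaperones and lectins 2 fell and none rose. SDF2L1, a stabilizer of BiP with an ERSE-II in its promoter, was at 28.3, 24.9 and 25.6 CPM at 20 µg/mL, 27.8, 27.8 and 23.2 at 100, and 20.4, 20.0 and 18.4 at 500 (-0.42 ± 0.09, adjusted p = 0.000146). The 500 µg/mL libraries lay below both lower doses, and vehicle, at 20.2, 23.5 and 22.6 CPM, overlapped them. CALR changed by -0.14 ± 0.04 (adjusted p = 0.0111). It lost its call without Menthae Herba 500 replicate 1 or 2 or without 20 replicate 3 (adjusted p up to 0.105). HSPA5 was at 1210, 1175 and 1127 CPM at 20, 1227, 1171 and 1176 at 100, and 1091, 1086 and 1110 at 500 (-0.09 ± 0.04, adjusted p = 0.054). The 500 µg/mL libraries lay below both lower doses, which overlapped, yet the change missed the threshold. HSP90B1, the ER paralog of HSP90, HYOU1, a nucleotide exchange factor of BiP, and CANX, the membrane lectin calnexin, read 0.01 ± 0.04, 0.02 ± 0.04 and -0.03 ± 0.04.

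Among the 9 disulfide isomerases 2 rose and 2 fell. ERP27 (chr12:14914035-14939082, minus strand) was at 4.73, 4.46 and 4.08 CPM at 20 µg/mL, 4.37, 4.73 and 4.13 at 100, and 2.95, 3.31 and 2.58 at 500 (-0.59 ± 0.12, adjusted p = 0.000165). The 500 µg/mL libraries lay under all others of this extract and under vehicle (5.22, 5.70 and 4.47 CPM). P4HB rose by 0.15 ± 0.04 (adjusted p = 0.00256) and TXNDC5, a thioredoxin-domain isomerase, by 0.13 ± 0.04 (adjusted p = 0.0107). PDIA4 (chr7:149003062-149028641, minus strand) went from 582.1, 554.1 and 583.9 CPM to 535.2, 536.1 and 530.6 CPM (-0.10 ± 0.04, adjusted p = 0.0482). The PDIA4 call was lost in 5 of the 6 fits without 1 library, all but that without 20 replicate 2 (adjusted p up to 0.177). The TXNDC5 call was lost without 20 replicate 3 (adjusted p = 0.14). TXNDC5 overlaps a readthrough gene on the same strand, as SYVN1 overlaps FAU and PDIA5 overlaps SEC22A, so their counts depend on how shared reads were assigned. The same may hold for ATF6, DNAJC3, CANX and ERP44, which overlap pseudogenes on the same strand. HERPUD1, DNAJC3, CALR and PDIA6 overlap noncoding genes there. HSP90B1, DNAJB9 and PDIA6 are among the members that overlap genes on the opposite strand, and the strand setting of the counting is not stated. PDIA3, PDIA5, PDIA6, ERP29 and ERP44 did not pass. MANF (chr3:51385047-51389397, plus strand), a secreted protein of ER stress, went from 72.8, 72.2 and 69.4 CPM to 57.3, 59.3 and 61.4 (-0.27 ± 0.09, adjusted p = 0.0143), and lost its call without 500 replicate 1 (adjusted p = 0.0606). CRELD2, another secreted ER stress protein, read -0.19 ± 0.08 and did not pass. SEC61A1 and SEC61B, subunits of the pore through which new chains enter the ER, read 0.11 ± 0.06 and 0.09 ± 0.12. Summed expression of the leukocyte marker list moved with these changes, from 1041 to 1204 CPM at 20 µg/mL to 2550 to 2678 CPM at 500. LYZ and CD68 carried this sum while PTPRC, CD3E and MS4A1 stayed at or under 0.0432 CPM. Of 8 hepatocyte markers APOA1 and FGB were called lower and TTR higher, with the summed list at 42220 to 46930 CPM at 20 and 46380 to 47450 at 500. Of 3 tested endothelial markers CDH5 was called lower (-1.53 ± 0.48, adjusted p = 0.0113). CDH5 lay near the floor, at 0.0783 to 0.743 CPM over all libraries, where 3 counts correspond to 0.0926 to 0.147 CPM. The part of these lists in the result was not tested.

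**Figure D2:**
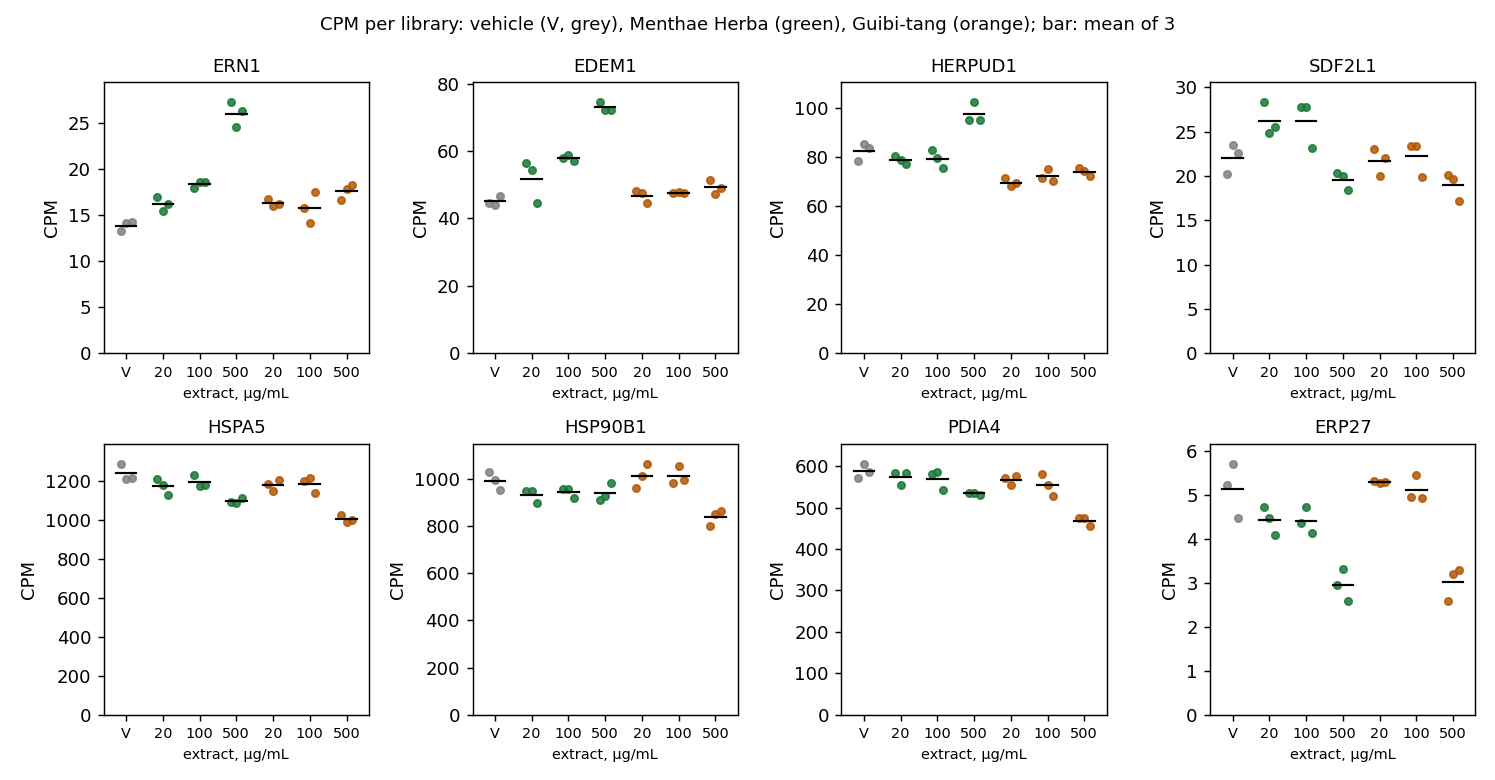
CPM (vertical axis, from 0) of 8 genes in each library of vehicle (V), Menthae Herba (green) and Guibi-tang (orange) by dose in µg/mL, with the mean of 3 as a bar. At 500 µg/mL ERN1, EDEM1 and HERPUD1 stand above the other groups in Menthae Herba, HSPA5, HSP90B1 and PDIA4 stand below them in Guibi-tang, and ERP27 is at 2.58 to 3.31 CPM in both extracts.

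From 20 to 500 µg/mL of Guibi-tang, 4 of 6 chaperones and lectins and 4 of 9 disulfide isomerases were called lower and no member higher. Of 32 members 9 were lower than at 20 µg/mL and 0 higher, where 3.2% of all genes were called lower and 4.93% higher, 8.12% in all. The 9 genes were the chaperones and lectins HSPA5, HSP90B1, HYOU1 and CALR, the disulfide isomerases PDIA3, PDIA4, PDIA6 and ERP27, and 1 of 6 ERAD genes (SEL1L). The members' median was -0.074 against -0.002 over all genes. Without Guibi-tang 20 replicate 3 the count was 5, without replicate 1 it was 8, and over all 6 fits without 1 library it was 5 to 8. It was also 5 in a fit of these 6 libraries alone and in a fit of the lower class alone, with HSPA5, HSP90B1, HYOU1, PDIA4 and ERP27 called in both. The lower class held 1 library at 20 µg/mL and 2 at 500, so that fit takes its spread from all groups of the class and assumes that the lone library varies like them.

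HSPA5 was at 1182, 1146 and 1205 CPM at 20 µg/mL, 1196, 1211 and 1136 at 100, and 1021, 987.8 and 997 at 500. The 500 µg/mL values were the lowest of the series, 20 and 100 overlapped, and the change was -0.23 ± 0.04 (adjusted p = 1.56e-05). HSP90B1 went from 961.3, 1013 and 1065 CPM through 982.5, 1054 and 998.2 to 799, 850.7 and 866.6 (-0.27 ± 0.04, adjusted p = 9.06e-06). PDIA4 went from 571.4, 554.5 and 575.6 CPM through 581.7, 554.9 and 527.8 to 474, 475.1 and 455.8 (-0.27 ± 0.04, adjusted p = 1.67e-06). In both genes 20 and 100 µg/mL overlapped while 500 lay below. HYOU1 changed by -0.20 ± 0.04 (adjusted p = 5.26e-05), with 333.6 to 348.8 CPM at 500 against 380.5 to 402.7 at 20.

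ERP27 was at 5.32, 5.27 and 5.29 CPM at 20 µg/mL, 4.96, 5.46 and 4.93 at 100, and 2.58, 3.20 and 3.28 at 500 (-0.80 ± 0.12, adjusted p = 2.81e-06). It was the largest change of a member in this extract, as it was among the falls in Menthae Herba, and the drop lay between 100 and 500 in both. CALR, PDIA3, PDIA6 and SEL1L changed by -0.15 ± 0.04, -0.15 ± 0.05, -0.15 ± 0.05 and -0.17 ± 0.05, with adjusted p from 0.0157 to 0.0353. Each of these 4 calls was lost in 4 of the 6 fits without 1 library, among them that without 20 replicate 3 (adjusted p up to 0.176). All 4 were also lost in the fit of these 6 libraries alone (adjusted p 0.0632 to 0.0785). SDF2L1 and CRELD2 read -0.19 ± 0.09 and -0.23 ± 0.08 and did not pass. The sensors and XBP1 read from -0.02 to 0.11 and did not pass.

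The 33 genes together summed to 9929, 9862 and 9826 CPM at 500 µg/mL of Guibi-tang, under the 10460 to 11230 CPM of the other 54 replicated libraries. This sum is a description and is carried by the most abundant members. The summed hepatocyte marker list was 45630 to 49000 CPM at 20 µg/mL and 40840 to 43520 CPM at 500, with 4 of its 8 genes called lower (AFP, FGB, ALB and TF). APOB, the most abundant gene of this list, was not among the 4. At 100 µg/mL the list summed to 45830, 37330 and 47370 CPM. The library at 37330 was the lowest of this extract, while its 33 genes summed to 10890 CPM, so the 2 sums did not move together in each library. The summed leukocyte list was 1115 to 1228 CPM at 20 and 1313 to 1334 CPM at 500, with LYZ and CD68 called higher. The part of both lists in the result was not tested. With bulk RNA, fewer cells of a kind and less RNA per cell cannot be told apart.

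**Figure D3:**
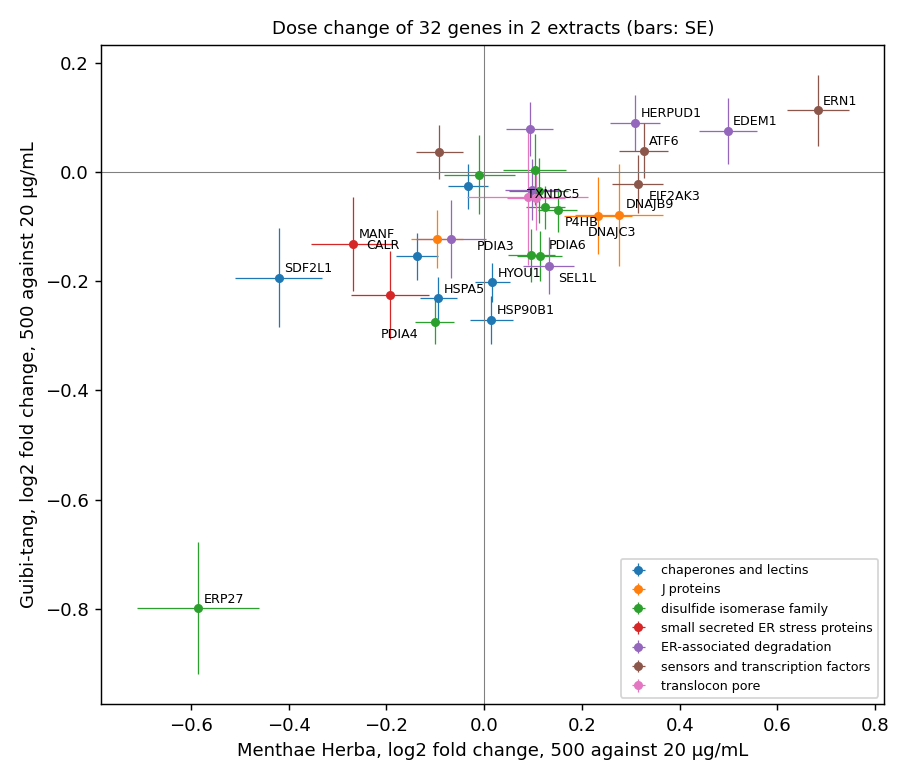
Log2 fold change of 500 against 20 µg/mL in Menthae Herba (horizontal) and Guibi-tang (vertical) for the 32 tested genes, coloured by role, with standard errors as bars and names for genes called in either extract. ERN1, EDEM1, ATF6 and EIF2AK3 lie to the right near 0 on the vertical axis, HSPA5, HSP90B1, HYOU1 and PDIA4 lie below it, and ERP27 is low on both.

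The 2 dose comparisons share no library. They called 15 and 9 members, of which 4 (CALR, ERP27, PDIA4 and SEL1L) were called in both, 26.7% of the Menthae Herba calls and 44.4% of the Guibi-tang calls. Over all genes 934 were called in both, 17.5% of the Menthae Herba calls and 69.1% of the Guibi-tang calls. CALR, ERP27 and PDIA4 fell in both, and SEL1L rose in Menthae Herba and fell in Guibi-tang. CALR and SEL1L lost their calls in fits without 1 library in both extracts, and PDIA4 did in Menthae Herba. The 10 genes with an ERSE or ERSE-II match held 5 of the Guibi-tang calls, all lower. They held 3 of the Menthae Herba calls, HERPUD1 higher and CALR and SDF2L1 lower. The 22 other tested members held 4 lower in Guibi-tang (PDIA3, PDIA4, ERP27 and SEL1L), and 9 higher and 3 lower in Menthae Herba. PDIA3, ERP27 and DERL1 among them had no promoter entry and were not searched. Over all genes 3.2% were called lower and 4.93% higher in Guibi-tang, and 15.8% and 16.3% in Menthae Herba. Of the 5 Guibi-tang calls with a match, CALR and PDIA6 were lost in 4 of 6 fits without 1 library. A link between match and change was not tested.

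In Soyo-san EDEM1 and ERN1, the 2 genes of largest rise in Menthae Herba, were called higher at 500 than at 20 µg/mL. These were 2 of 32 members, with 0 lower, where 4.24% of all genes were called higher and 3.34% lower, 7.58% in all. The members' count is near these shares, and 2 calls are too few to set against them. EDEM1 was at 49.3, 46.4 and 46.8 CPM at 20, 49.7, 47.8 and 54.4 at 100, and 60.8, 63.0 and 56.0 at 500 (0.33 ± 0.06, adjusted p = 6.64e-05). ERN1 was at 16.3, 15.8 and 16.0 CPM at 20, 17.0, 18.5 and 16.7 at 100, and 18.7, 20.2 and 19.2 at 500 (0.27 ± 0.07, adjusted p = 0.00359). In both genes 500 µg/mL lay above the lower doses, and both calls held without any 1 of the 6 libraries. The members' median was 0.068 against -0.006 over all genes. DNAJB9 read 0.26 ± 0.09 (adjusted p = 0.078), and HERPUD1, ATF6 and EIF2AK3 read 0.11 ± 0.05, 0.15 ± 0.05 and 0.12 ± 0.05. The leukocyte list, again through LYZ, was 1119 to 1195 CPM at 20 and 1809 to 1915 CPM at 500, and its part was not tested.

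The other 3 extracts moved few members with dose. In Saengmaek-san 1 member was lower and 0 higher, where 0.913% of all genes were called higher and 1.05% lower, 1.96% in all. This was DNAJB11, a J protein that binds unfolded chains with BiP, printed by library although the rule for named genes did not pick it, at 107.1, 102.6 and 114.5 CPM at 20 µg/mL, 102.7, 97.4 and 103.3 at 100, and 83.4, 95.2 and 102.3 at 500 (-0.21 ± 0.05, adjusted p = 0.019). The lowest library at 20 lay just above the highest at 500, and the count was 0 without Saengmaek-san 500 replicate 1, 20 replicate 1 or 20 replicate 3 (adjusted p up to 0.37). It was 2 without 500 replicate 3. In Saposhnikoviae Radix 0 members were called by edgeR and by DESeq2 (0.21% of all genes were called higher and 0.186% lower, 0.397% in all, by edgeR), and 2 had an unadjusted p under 0.05, PDIA6 and ERN1. In Okbyeongpung-san 0 were called by both tools (0.018% of all genes were called higher and 0.00601% lower, 0.024% in all, by edgeR), and 1 had an unadjusted p under 0.05, ERP27 at 0.23 ± 0.11.

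The dose change differed among the 6 extracts in 18 of the 32 members by a test of the differences themselves, where 18.5% of all genes were called. The smallest adjusted p were those of EDEM1 (7.62e-07), ERN1 (2.19e-06), ERP27 (2.2e-06) and HSPA5 (1.89e-05). Between extracts that share a code number, Menthae Herba exceeded Saposhnikoviae Radix in 7 members and was below it in 2, where 10% of all genes were called higher and 9.99% lower, 20% in all. ERN1 differed by 0.53 ± 0.09 (adjusted p = 1.14e-05) and EDEM1 by 0.55 ± 0.08 (adjusted p = 1.36e-06) on the log2 scale. Guibi-tang was below Saengmaek-san in 3 members and above it in 0, where 0.829% of all genes were called higher and 0.324% lower, 1.15% in all. These were HSPA5 (-0.27 ± 0.05, adjusted p = 0.00245), HYOU1 (-0.24 ± 0.05, adjusted p = 0.00548) and PDIA4 (-0.24 ± 0.06, adjusted p = 0.019). The count was 0 in a fit of the 12 libraries of these groups alone and 6 by DESeq2. Soyo-san exceeded Okbyeongpung-san in 1 member, EDEM1 (0.39 ± 0.09, adjusted p = 0.00408), where 1.5% of all genes were called higher and 0.853% lower, 2.36% in all.

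Against vehicle, several members differed already at 20 µg/mL, the lowest dose. The comparisons below share the 3 vehicle libraries, so they are not independent of each other. EIF2AK3 was at 36.8 to 37.2 CPM in vehicle, and 52 of 54 extract libraries lay below that range. At 20 µg/mL its log2 difference from vehicle was -0.30 in Menthae Herba, -0.23 in Saposhnikoviae Radix, -0.25 in Saengmaek-san, -0.23 in Guibi-tang, -0.35 in Soyo-san and -0.26 in Okbyeongpung-san. All 6 passed the test (adjusted p from 5.05e-05 to 0.005) and kept their call in each fit without 1 library. In fits of the 2 compared groups alone those of Saengmaek-san, Guibi-tang and Okbyeongpung-san were lost (adjusted p from 0.0703 to 0.0854). DNAJB9 was at 14.7 to 15.4 CPM in vehicle with 51 of 54 extract libraries below it. HERPUD1 was at 78.1 to 85.3 CPM in vehicle with 45 of 54 below, and CALR at 1529 to 1605 CPM with 53 of 54 below. ERN1 showed the opposite order, with 53 of 54 extract libraries above the vehicle range of 13.3 to 14.3 CPM. EDEM1 had 51 of 54 above 44.1 to 46.7 CPM. Among other members SYVN1 had 50 of 54 below its vehicle range, SEC61B 49 above and TXNDC5 48 above. HSP90B1 had 18 below and 3 above. These counts pool the 3 doses, and the share of all genes that separate as often was not counted. At 20 µg/mL alone the ERN1 calls in Menthae Herba, Guibi-tang and Okbyeongpung-san were lost in 3, 6 and 5 of 6 fits without 1 library. Code number, dimethyl sulfoxide and treatment cannot be told apart in any of these values. The mitochondrial share of counts was 13.0% to 16.4% in vehicle and 9.33% to 14.3% in the extract libraries, of which 48 of 54 lay below all vehicle libraries, and its part in these differences was not tested.

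**Figure D4:**
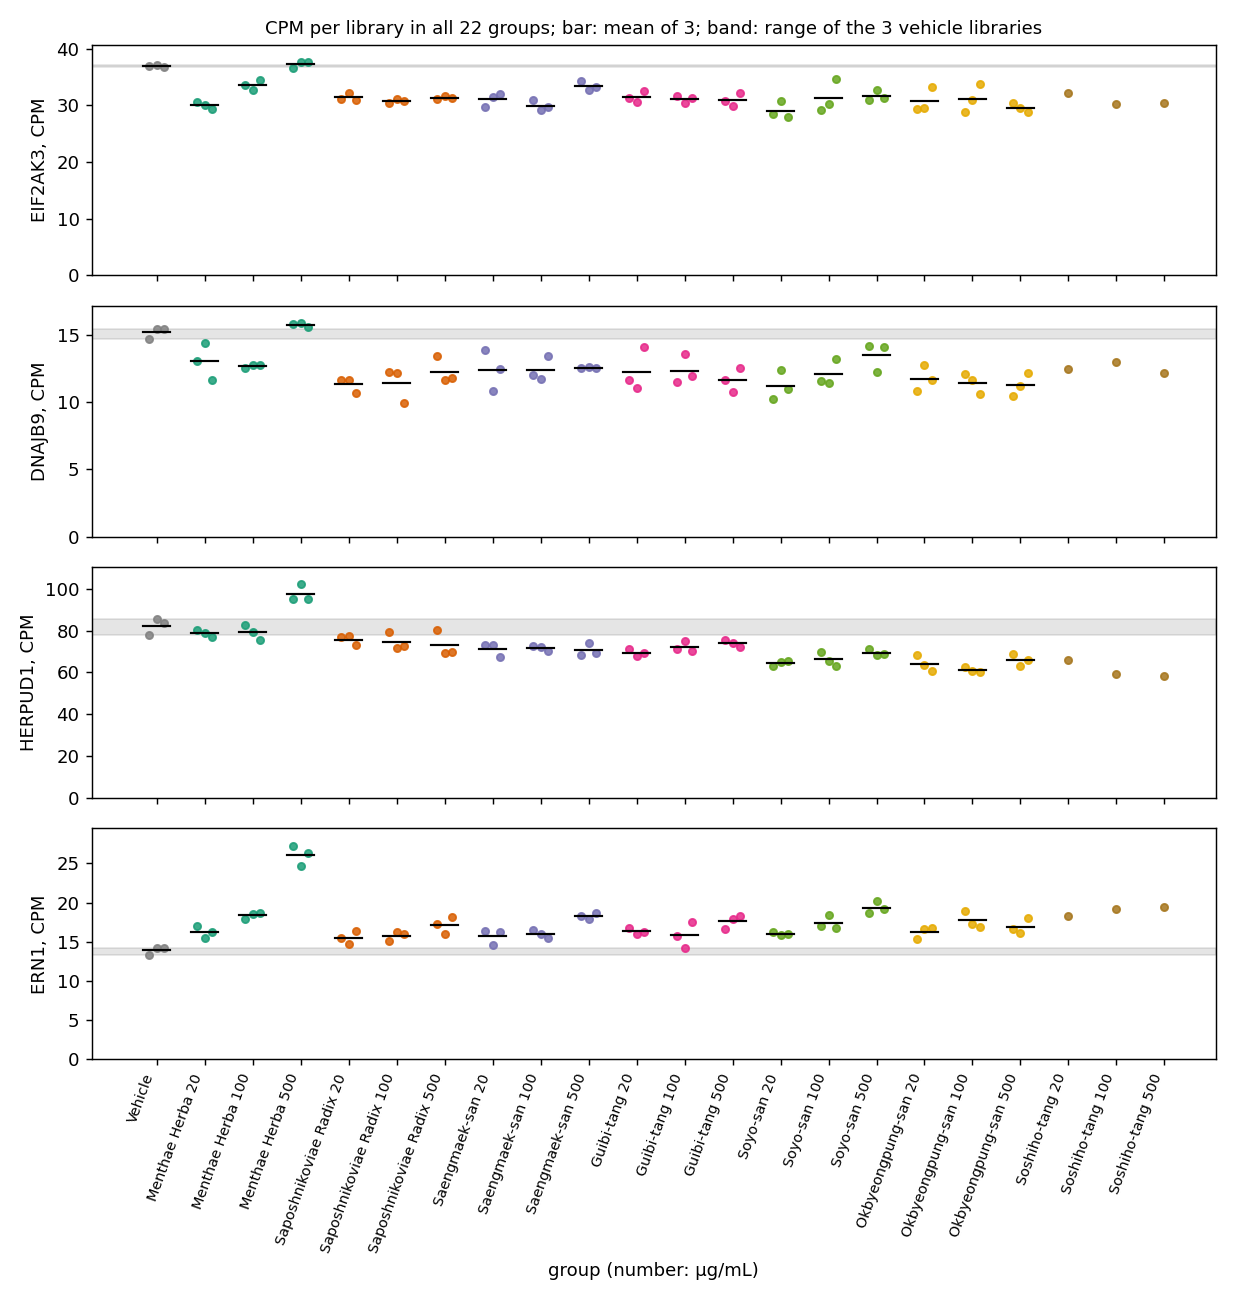
CPM (vertical axes, from 0) of EIF2AK3, DNAJB9, HERPUD1 and ERN1 in each library of all 22 groups, with the mean of 3 as a bar and the vehicle range as a grey band. Nearly all extract libraries lie below the band for EIF2AK3 (52 of 54 replicated libraries) and above it for ERN1 (53 of 54). The share of all genes that separate as often was not counted. Menthae Herba 500 is the highest group of all 4 genes.

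At 500 µg/mL Menthae Herba had 11 members higher and 7 lower than vehicle (19.8% and 20% of all genes, 39.8% in all). ERN1 was higher by 0.91 ± 0.06 (adjusted p = 3.82e-17) and EDEM1 by 0.70 ± 0.06 (adjusted p = 3.48e-14). ERP27 was lower by -0.80 ± 0.12, DNAJB11 by -0.28 ± 0.05 and MANF by -0.28 ± 0.09, of which MANF lost its call without vehicle replicate 2 (adjusted p = 0.051). Guibi-tang had 1 higher and 12 lower (6.69% and 6.72% of all genes, 13.4% in all). The 12 included HSPA5 (-0.30 ± 0.04), HYOU1 (-0.31 ± 0.04), PDIA4 (-0.32 ± 0.04) and CALR (-0.30 ± 0.04), each called in every fit without 1 library.

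At the same dose Soyo-san had 6 higher and 3 lower than vehicle (10.1% and 11.4% of all genes, 21.5% in all). Saengmaek-san had 4 and 6 (5.67% and 6.98% of all genes, 12.6% in all). Saposhnikoviae Radix had 3 and 5 (2.99% and 2.82% of all genes, 5.8% in all), and Okbyeongpung-san had 3 and 5 (4.22% and 4.9% of all genes, 9.11% in all). ERN1 was among the higher genes in each, at 0.48 ± 0.07, 0.40 ± 0.07, 0.31 ± 0.07 and 0.29 ± 0.07, and kept its call in each fit without 1 library. In a fit of the 2 compared groups alone the call of Saposhnikoviae Radix was lost (adjusted p = 0.0587), and its count of 8 became 0 and the Saengmaek-san count of 10 became 3. For Saengmaek-san the count of 10 became 6 without vehicle replicate 2 or Saengmaek-san 500 replicate 1. For Saposhnikoviae Radix the count of 8 became 3 without vehicle replicate 2, and 4 without vehicle replicate 1 or its own 500 replicate 2 or 3. For Okbyeongpung-san the count of 8 became 5 without vehicle replicate 1. SEC61B was higher in Soyo-san (0.54 ± 0.13, adjusted p = 0.00149) and Okbyeongpung-san (0.51 ± 0.12, adjusted p = 0.00675), both of the higher library class, and in Menthae Herba (0.36 ± 0.13, adjusted p = 0.0201), of the lower class like vehicle. With library class as a term the first 2 were 0.38 (adjusted p = 0.0536) and 0.36 (adjusted p = 0.0951). Without vehicle replicate 1, the lowest at 31.2 CPM, the calls of Okbyeongpung-san (adjusted p = 0.0596) and Menthae Herba (adjusted p = 0.131) were lost, the latter also without Menthae Herba 500 replicate 2.

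At 100 µg/mL the members higher and lower than vehicle numbered 6 and 2 in Menthae Herba (7% and 7.04% of all genes, 14% in all) and 3 and 2 in Saposhnikoviae Radix (2.81% and 2.66% of all genes, 5.47% in all). They numbered 0 and 4 in Saengmaek-san (2.72% and 3.33% of all genes, 6.05% in all) and 0 and 6 in Guibi-tang (3.04% and 4.92% of all genes, 7.96% in all). They numbered 2 and 4 in Soyo-san (3.39% and 4.91% of all genes, 8.31% in all) and 4 and 7 in Okbyeongpung-san (5.9% and 7.04% of all genes, 12.9% in all). EDEM1 (0.37 ± 0.06) and ERN1 (0.41 ± 0.07) led the rises in Menthae Herba, and HERPUD1 (-0.43 ± 0.05) and DNAJB9 (-0.41 ± 0.09) the falls in Okbyeongpung-san. Leaving out vehicle replicate 1 took Menthae Herba from 8 to 5, Saposhnikoviae Radix from 5 to 2 and Okbyeongpung-san from 11 to 7. Leaving out vehicle replicate 2 took Saengmaek-san from 4 to 1 and Guibi-tang from 6 to 3, and leaving out replicate 3 took them to 2 and 3. Saposhnikoviae Radix was at 2 without any 1 of its own 3 libraries, Saengmaek-san at 1 without its replicate 2, and Okbyeongpung-san at 7 and 6 without its replicates 2 and 3. Fits of the 2 compared groups alone called 0 in Guibi-tang, 2 in Saengmaek-san and 6 in Okbyeongpung-san. For Saengmaek-san the 4 lower genes became 4 higher and 5 lower with library class as a term and 2 higher and 8 lower by DESeq2, and for Saposhnikoviae Radix DESeq2 called 5 higher and 3 lower.

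At 20 µg/mL the members higher and lower than vehicle numbered 2 and 3 in Menthae Herba (3.33% and 3.49% of all genes, 6.83% in all) and 3 and 3 in Saposhnikoviae Radix (3.54% and 3.65% of all genes, 7.19% in all). They numbered 0 and 2 in Saengmaek-san (1.45% and 1.92% of all genes, 3.37% in all) and 1 and 4 in Guibi-tang (1.75% and 2.63% of all genes, 4.38% in all). They numbered 0 and 5 in Soyo-san (1.66% and 2.22% of all genes, 3.88% in all) and 1 and 5 in Okbyeongpung-san (3.23% and 3.76% of all genes, 6.99% in all). EIF2AK3 was among the lower genes of each. Leaving out vehicle replicate 1 took Menthae Herba from 5 to 1, Saposhnikoviae Radix from 6 to 2 and Guibi-tang from 5 to 3. Leaving out vehicle replicate 2 took Menthae Herba to 3, Saengmaek-san from 2 to 1, Guibi-tang to 2 and Soyo-san from 5 to 3, and leaving out replicate 3 took Saengmaek-san to 1 and Guibi-tang to 2. Of the extract libraries, Menthae Herba was at 1, 2 and 5 without its replicates 1, 2 and 3, Saposhnikoviae Radix at 3 without its replicate 2 and Saengmaek-san at 1 without its replicate 3. Guibi-tang was at 2, 2 and 3 without its replicates 1, 2 and 3, Soyo-san at 2 without its replicate 1 and Okbyeongpung-san at 2 without its replicate 3. Fits of the 2 compared groups alone called 1 in Menthae Herba, 0 in Saengmaek-san, 1 in Guibi-tang and 2 in Okbyeongpung-san. With library class as a term Saengmaek-san was at 4 and Guibi-tang at 3, and DESeq2 called 5 in Saengmaek-san and 10 in Okbyeongpung-san.

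Genes of the wider pathway that are not members were counted from 8 lists of 106 symbols. From 20 to 500 µg/mL of Menthae Herba, 6 of 11 tested genes of the PERK and ATF4 branch rose and 0 fell, 5 of 12 for oxidative folding, 8 of 16 cochaperones and prolyl isomerases, 3 of 8 for glucose trimming, 1 of 11 oligosaccharyltransferase subunits, 4 of 18 for translocation and 1 of 7 further sensors. Of 20 further ERAD genes 7 rose and 1 fell. Beside the 16.3% of all genes called higher, the counts for translocation, further sensors and oligosaccharyltransferase subunits are near or below that share. The 3 largest called changes were VLDLR (1.44 ± 0.16, adjusted p = 2.63e-10), ATF3, a stress transcription factor (1.25 ± 0.13, adjusted p = 2.32e-11), and ASNS, asparagine synthetase and an ATF4 target (0.78 ± 0.06, adjusted p = 7.37e-15). ERO1A, the oxidase that recharges disulfide isomerases, rose by 0.65 ± 0.07 and EDEM3, a paralog of EDEM1, by 0.56 ± 0.07, both picked after their values were seen.

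In Guibi-tang 3 of 11 genes of the PERK and ATF4 branch rose and 1 fell. NUPR1 (0.43 ± 0.11, adjusted p = 0.00484) and DDIT3, the factor CHOP (0.39 ± 0.13, adjusted p = 0.0445), were higher, and ASNS was lower (-0.34 ± 0.07, adjusted p = 0.00026). Of 16 cochaperones and prolyl isomerases 2 fell, where 3.2% of all genes were called lower and 4.93% higher. In the other lists 1 of 12 rose for oxidative folding, 1 of 20 rose and 1 fell for further ERAD, 1 of 11 oligosaccharyltransferase subunits fell, and 0 passed for glucose trimming, translocation and further sensors. In Soyo-san 4 of 12 rose for oxidative folding, 3 of 20 for further ERAD, 2 of 16 cochaperones and prolyl isomerases and 1 of 11 for the PERK and ATF4 branch, and 0 fell (4.24% of all genes called higher, 3.34% lower). Counts of 1 or 2 in a list are too few to set against these shares. ATF3 (0.48 ± 0.14), QSOX1, a sulfhydryl oxidase (0.32 ± 0.09), and PPIC, a prolyl isomerase (0.31 ± 0.08), had the largest of these. ASNS was lower in Saposhnikoviae Radix (-0.39 ± 0.07) and Okbyeongpung-san (-0.41 ± 0.07). In Saengmaek-san NUPR1 was lower (-0.45 ± 0.12) and SPCS3, a signal peptidase subunit, higher (0.21 ± 0.05). These were the single calls from the lists in the first 2 of these extracts and the only 2 calls in Saengmaek-san.

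For Soshiho-tang the 3 libraries give values only. Of its 32 log2 ratios of 500 over 20 µg/mL, 15 lay above 0 and 17 below. SDF2L1 was at 24.5, 20.7 and 19.2 CPM at 20, 100 and 500 µg/mL (log2 ratio -0.35), XBP1 at 345.8, 288.3 and 276.7 (-0.32) and HERPUD1 at 65.9, 59.4 and 58.1 (-0.18). The XBP1 values at 100 and 500 and the HERPUD1 values at those doses lay under the lowest replicated library of the series (299.7 and 60.3 CPM). HSPA5 was at 1178, 1145 and 1116 CPM (-0.08), and ERN1 at 18.3, 19.2 and 19.5 CPM (0.09). With 1 library per dose these ratios have no replicate check.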

How the data were processed

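RNA from HepG2 libraries made with a directional kit was sequenced by the authors. The deposited values are expected counts for each Ensembl gene, from RSEM 1.3.3 after Trim Galore 0.6.5 and STAR 2.7.3a on GRCh38, per the submitters' processing notes. The sources used here name neither the annotation release nor the strand setting. Expected counts share reads among overlapping or similar genes by estimate, and 71.9% of the nonzero values were whole. They were rounded, filtered (filterByExpr, minimum count 10) and scaled by TMM, and 57 libraries in 19 groups were fitted together with edgeR 4.0.16 (R 4.3.3), robust quasi-likelihood, with p-values adjusted by Benjamini-Hochberg over 16644 genes. An adjusted p under 0.05 was called. CPM are counts over TMM-scaled totals of the tested genes. Over the unscaled totals of all genes 3 counts correspond to 0.147 CPM in the shallowest library and 0.0926 CPM in the deepest. This covers counting error only. Alternatives were DESeq2 1.42.0, RLE scaling, no filter, fits of the compared groups alone, library class as a term, a replicate block, each library left out in turn and, added after seeing the data, lower-class libraries alone. The fitting scripts were tested on simulated data. Library values are printed for HSPA5, XBP1, DNAJB9, HERPUD1, ERP27 and the 12 called members of largest dose change in any extract. Besides ERO1A and EDEM3, up to 3 genes per extract are named from the other lists. ERO1A, EDEM3 and the members described by a range or fold change alone were named after their values were seen. The members and lists were chosen with earlier results of these data known. In none of 24 comparisons did every same-numbered pair of libraries correlate above 0.1 in its deviations, so the block is given only with the alternatives.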

Additional observations from a re-analysis of the deposited data

Results flagged for a closer look

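These results were singled out because a test of the difference between extracts itself passed. The change from 20 to 500 µg/mL differed among the 6 extracts (edgeR quasi-likelihood test with 5 degrees of freedom, Benjamini-Hochberg adjusted p) for EDEM1 (7.62e-07), ERN1 (2.19e-06), ERP27 (2.2e-06), HSPA5 (1.89e-05), HYOU1 (0.00015), HSP90B1 (0.000477), PDIA4 (0.000484), ATF6 (0.000799) and EIF2AK3 (0.000874). It also differed for HERPUD1 (0.00197), PDIA6 (0.0108), P4HB (0.0226), SEL1L (0.0239), CALR (0.0253), SDF2L1 (0.028), TXNDC5 (0.0315), PDIA3 (0.0446) and DNAJC3 (0.0472).

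Between Menthae Herba and Saposhnikoviae Radix the log2 dose change differed by 0.55 for EDEM1, 0.53 for ERN1, 0.35 for HERPUD1, 0.33 for ATF6, 0.32 for EIF2AK3, 0.21 for PDIA6 and 0.19 for P4HB, and by -0.34 for SDF2L1 and -0.76 for ERP27. Between Guibi-tang and Saengmaek-san it differed by -0.27 for HSPA5, -0.24 for HYOU1 and -0.24 for PDIA4. Between Soyo-san and Okbyeongpung-san it differed by 0.39 for EDEM1.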

How the results depend on the processing

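Of 416 alternative counts of called members over 28 comparisons 343 stayed within 1.5 times the reported count. No named member changed sign where either fit called it, but calls were lost. Fits of the compared groups alone lost 28 of 96 calls of named members, and fits without the low-count filter lost 10 of 96. Over the fits without 1 library 121 of 576 were lost. Library class as a term lost 4 of 96 and DESeq2 1 of 96. Fits of the compared groups alone gave 0 for Saengmaek-san and 5 for Guibi-tang from 20 to 500 µg/mL, 0 for Guibi-tang against Saengmaek-san, 0 and 3 for Saposhnikoviae Radix and Saengmaek-san at 500 against vehicle, 2, 0 and 6 for Saengmaek-san, Guibi-tang and Okbyeongpung-san at 100, and 1, 0, 1 and 2 for Menthae Herba, Saengmaek-san, Guibi-tang and Okbyeongpung-san at 20. DESeq2 gave 2 for the Saengmaek-san dose change, 8 and 10 for Saposhnikoviae Radix and Saengmaek-san at 100 against vehicle, 5 and 10 for Saengmaek-san and Okbyeongpung-san at 20, and 6 for Guibi-tang against Saengmaek-san. Without the low-count filter these were 2 for the Saengmaek-san dose change, 4 for Saengmaek-san at 20 and 1 for Guibi-tang against Saengmaek-san. Library class as a term gave 2, 9 and 4 for the Saengmaek-san dose change, 100 and 20 against vehicle, and 3 for Guibi-tang at 20. Lower-class libraries alone gave 5 for the Guibi-tang dose change. The cause of these shifts was not tested. The replicate block gave 15, 0, 1, 9, 2 and 0 members for the dose changes in the order of the report's list of extracts, and 17 for the differences among extracts. The replicate block within the first code number gave 2, 9 and 4 for the Saengmaek-san dose change, 100 and 20 against vehicle, and 5 for Guibi-tang against Saengmaek-san.

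Leaving out 1 library gave ranges of 11 to 16 (Menthae Herba), 0 to 0 (Saposhnikoviae Radix), 0 to 2 (Saengmaek-san), 5 to 8 (Guibi-tang), 2 to 3 (Soyo-san) and 0 to 0 (Okbyeongpung-san) for the dose changes. In the same order the ranges against vehicle were 14 to 18, 3 to 8, 6 to 10, 11 to 12, 6 to 9 and 5 to 8 at 500, 5 to 8, 2 to 5, 1 to 3, 3 to 7, 4 to 6 and 6 to 13 at 100, and 1 to 5, 2 to 6, 1 to 3, 2 to 3, 2 to 5 and 2 to 7 at 20. They were 13 to 19 for the differences among extracts and 7 to 11, 2 to 4 and 1 to 1 for the 3 pairs of extracts. Depth limits ERP27 and DERL3 most among the members.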
